A study of Mus musculus with 12 samples.

Results

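The genes described here are 10 markers of macrophages in mouse liver: Clec4f, Cd5l, Marco, C1qa, C1qb, C1qc, Adgre1, Cd68, Cd14 and Trem2. They were taken by gene symbol from the deposited tables, and the 10 are among 26031 gene identifiers that have counts. Bulk RNA of liver pieces from C57BL/6N mice was sequenced in 12 libraries, 3 in each of 4 groups. In the PCN group (HFD PCN, replicates 5, 11 and 27), mice on high-fat diet were injected intraperitoneally with 50 mg/kg PCN once a day for 4 days. PCN, a synthetic steroid, is an agonist of the pregnane X receptor of rodents, which controls genes of drug metabolism in hepatocytes. In the vehicle group (HFD Vehicle, replicates 15, 23 and 55), mice on the same diet were injected for 4 days with the vehicle, whose label names 30% DMSO and corn oil. The uninjected high-fat diet group (HFD, replicates 4, 30 and 38) and the regular chow group (Chow, replicates 8, 17 and 19) received no treatment. All 4 groups were of the same strain, and the diets began at 6 weeks of age and lasted 15 weeks. The labels give no genetic change in any group, and they do not say whether the 3 libraries of a group are 3 animals, so p-values measure only the spread between libraries.

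Kupffer cells are the resident macrophages of the liver, and they sit in the sinusoids, where they take up particles, bacteria and worn red blood cells from the blood. Clec4f and Cd5l are genes typical of mouse Kupffer cells, whereas Adgre1 (the antigen F4/80) and Cd68 mark macrophages in general. In fatty liver, monocytes from the blood can replace part of the Kupffer cells, and macrophages with high Trem2 are known to gather around lipid-laden hepatocytes. In bulk RNA, fewer cells of a type and less RNA per cell cannot be told apart.

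Counts of all 10 genes were at hand for HFD Vehicle and HFD. Chow had counts for 8 (not Clec4f and Marco), and HFD PCN had counts for 3 (Trem2, Cd14 and Cd68), because all but 1 of the deposited tables list only genes called in that comparison. A gene thus has Chow or PCN counts only if some comparison with that group called it, so the 8 and the 3 are not a neutral sample of the 10. Libraries held 19773547 to 22039805 counts in HFD Vehicle and 7466378 to 38161486 in HFD, and the totals estimated from size factors ran from 11500000 to 35400000 in HFD PCN and from 15100000 to 22300000 in Chow. Hepatocyte markers were at high levels, summing to 1038973 to 1730388 normalized counts over 8 genes in HFD Vehicle and 1314360 to 1790721 in HFD. None of the 10 macrophage genes was at 0 in any library with counts, and all 10 passed the expression filter of the complete table.

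The 3 C1q genes lie side by side on chromosome 4 of GRCm38 (chr4:136880129-136898803, 18.7 kb, all on the minus strand), and their products form the recognition part of the first complement component. The other 7 genes lie on 6 chromosomes, and no other gene of the GENCODE M21 annotation overlaps the span of any of the 10. RefSeq promoter windows, running from 250 bases before to 50 after the gene start in GRCm38.p6, were examined for 7 of the 10 genes. Adgre1 and C1qa had no usable entry, and the window of Cd14 was not examined. The 5 shown are examples. C1qb, C1qc, Cd5l and Clec4f, like Cd68, followed the mean of the 10 genes across the HFD Vehicle and HFD libraries, and Trem2, like Marco, did not. Capitals mark GAGGAA on either strand, the core letters recognised by PU.1, a transcription factor of myeloid cells.
C1qb, chr4:136886151-136886450, minus strand: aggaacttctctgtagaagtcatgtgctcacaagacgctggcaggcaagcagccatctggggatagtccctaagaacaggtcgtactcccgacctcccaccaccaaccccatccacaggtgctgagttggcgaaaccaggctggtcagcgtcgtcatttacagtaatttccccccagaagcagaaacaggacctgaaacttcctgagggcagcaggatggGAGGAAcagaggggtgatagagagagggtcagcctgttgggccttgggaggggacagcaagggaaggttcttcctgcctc
C1qc, chr4:136892865-136893164, minus strand: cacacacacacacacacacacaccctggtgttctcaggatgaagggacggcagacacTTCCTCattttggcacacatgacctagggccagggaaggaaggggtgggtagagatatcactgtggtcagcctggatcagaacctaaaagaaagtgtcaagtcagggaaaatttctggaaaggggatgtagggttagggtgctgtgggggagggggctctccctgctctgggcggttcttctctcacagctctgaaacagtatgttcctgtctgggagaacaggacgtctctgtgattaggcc
Cd5l, chr3:87357631-87357930, plus strand: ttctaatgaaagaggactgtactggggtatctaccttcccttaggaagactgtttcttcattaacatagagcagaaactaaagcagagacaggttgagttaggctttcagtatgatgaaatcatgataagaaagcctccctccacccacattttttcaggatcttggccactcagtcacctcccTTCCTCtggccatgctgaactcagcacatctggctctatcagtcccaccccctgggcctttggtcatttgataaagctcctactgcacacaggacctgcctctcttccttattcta
Clec4f, chr6:83656067-83656366, minus strand: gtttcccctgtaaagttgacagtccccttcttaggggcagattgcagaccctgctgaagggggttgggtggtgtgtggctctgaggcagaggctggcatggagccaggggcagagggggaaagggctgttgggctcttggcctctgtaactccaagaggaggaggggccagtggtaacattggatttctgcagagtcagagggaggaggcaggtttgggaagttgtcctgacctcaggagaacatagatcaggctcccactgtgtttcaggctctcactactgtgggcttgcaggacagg
Trem2, chr17:48346151-48346450, plus strand: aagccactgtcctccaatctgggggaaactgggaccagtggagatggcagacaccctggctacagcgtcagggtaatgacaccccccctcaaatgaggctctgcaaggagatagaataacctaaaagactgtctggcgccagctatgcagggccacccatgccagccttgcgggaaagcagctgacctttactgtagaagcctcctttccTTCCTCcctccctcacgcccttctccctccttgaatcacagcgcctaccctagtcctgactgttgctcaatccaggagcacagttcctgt
The letters GAGGAA stood on either strand in 6 of the 7 windows, all but that of Clec4f, and in 28.3% of all 32817 promoter windows of that length. The MAF half-site letters TGCTGA stood on either strand in 3 of the 7 (C1qb, Clec4f and Cd5l) and in 19.5% of all windows. The 2 motifs shared no bases in these windows, and a match of letters is a description, not a binding site.

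Per kilobase of exon, Cd5l had the highest level and Trem2 the lowest, of the 10 genes in HFD Vehicle and HFD and of the 8 genes with counts in Chow. Cd5l encodes a scavenger protein that macrophages secrete into plasma. Its normalized count per kilobase averaged 910 ± 184 in HFD Vehicle, 1118 ± 388 in HFD and 624 ± 118 in Chow (SD, n = 3 each, as for every group mean that follows). Clec4f, a lectin receptor of Kupffer cells, followed at 616 ± 161 in HFD Vehicle and 886 ± 267 in HFD. C1qb and C1qa were next and close to each other, at 594 ± 114 and 589 ± 81.8 in HFD Vehicle and 750.3 ± 242 and 749 ± 176 in HFD. The levels of these 4 genes overlapped between neighbours in the order, although Cd5l lay above Clec4f in each of the 6 libraries. C1qc came after them, at 307 ± 45.5 in HFD Vehicle and 449 ± 183 in HFD. Its place rests on its exon length of 1931 bases, against 1040 for C1qa and 1088 for C1qb. Before division by length the 3 genes had similar counts, at 592.4 for C1qc, 612 for C1qa and 646.3 for C1qb in HFD Vehicle. Marco, Adgre1, Cd14 and Cd68 lay between 73.1 and 214 per kilobase in both groups. Trem2, a lipid-sensing receptor, stood far below, at 5.0 ± 2.2 per kilobase in HFD PCN, 4.4 ± 3.0 in HFD Vehicle, 4.5 ± 3.1 in HFD and 0.9 ± 0.2 in Chow. Its libraries did not overlap those of the next gene above it in any group. The exon length used for Trem2 was 4946 bases, which lowers its level per kilobase. In Chow the order of the 8 genes with counts was Cd5l, C1qa (489 ± 65.7), C1qb (448 ± 77.3), C1qc (260 ± 20.5), Adgre1 (125 ± 27.1), Cd14 (109.8 ± 26.0), Cd68 (49.1 ± 0.8) and Trem2, where C1qa overlapped both Cd5l and C1qb, and Adgre1 overlapped Cd14.

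**Figure D1:**
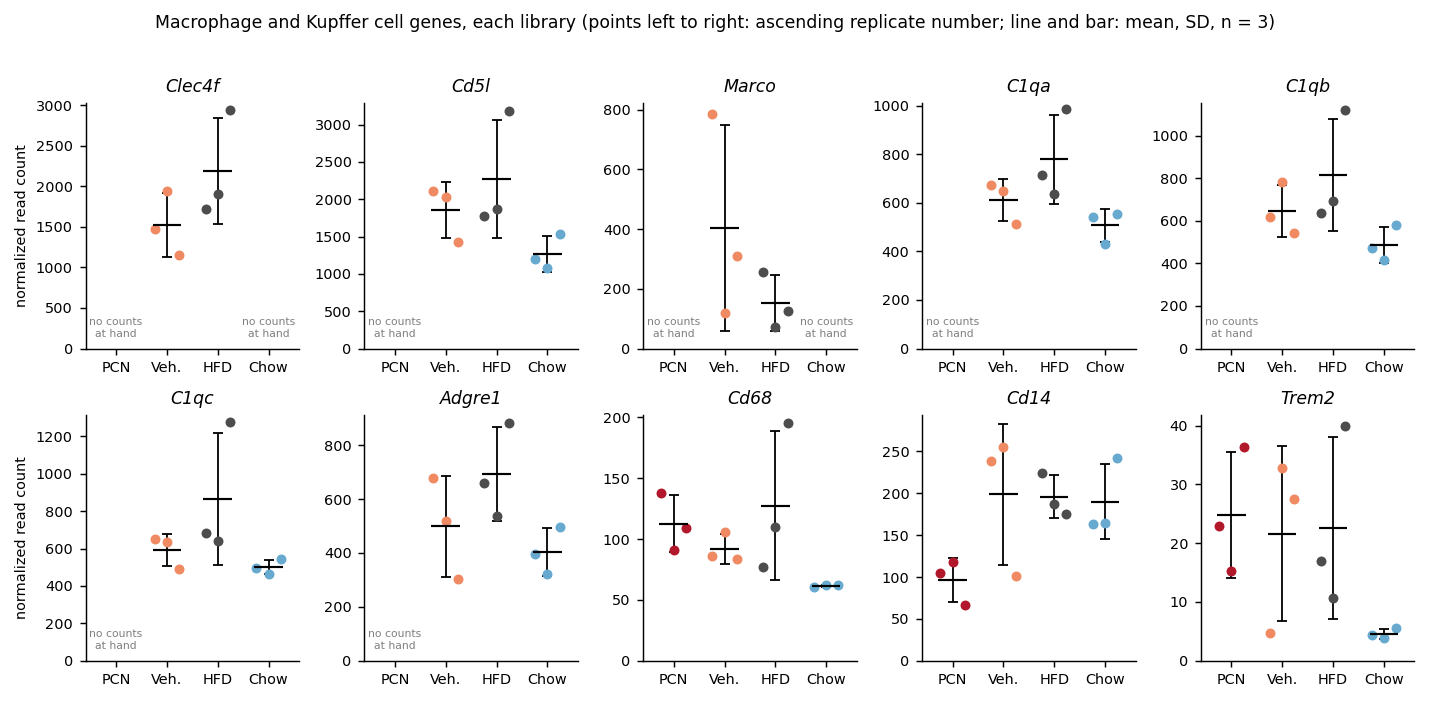
Normalized read counts (vertical axis, each panel from 0) of the 10 genes in each library, by group, with the mean and SD of 3 libraries; groups whose counts are not at hand are marked. The right-hand HFD Vehicle point is replicate 55, the lowest of the 6 HFD Vehicle and HFD libraries for 7 of the 10 genes, and the right-hand HFD point is replicate 38, the highest for 8.

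The comparison of HFD with Chow asks what the fatty diet did to these genes without injection, and it held most of the calls. Of the 10 genes, 6 rose and none fell in the authors' deposited table (adjusted p under 0.05): Trem2, Cd5l, Adgre1, C1qa, C1qb and C1qc. That table called 4.85% of the estimated 25255 genes tested, and 2.81% were called higher. Cd68, Cd14, Clec4f and Marco had no row in it. Since Chow counts of most of the 6 exist only because of these calls, their lack of overlap between groups is part of how they came to be listed: the libraries of HFD and Chow did not overlap for 99.7% of all listed genes.

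Trem2 had the largest ratio of the 6. Its normalized counts were 16.9, 10.6 and 40.0 in HFD replicates 4, 30 and 38, against 4.3, 3.8 and 5.5 in Chow replicates 8, 17 and 19. All HFD libraries lay above all Chow libraries, and HFD replicate 38 was the highest. The ratio of means was 4.93, and 3.01 without HFD replicate 38. These values rest on few reads, 65 in HFD and 13 in Chow, and the pooled ratio of 3.85 had a 95% interval of 2.1 to 7.61 that covers counting error only. The authors' deposited table gave Trem2 an adjusted p of 0.0362.

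The 3 C1q genes moved by similar ratios. C1qa had 715.7, 635.7 and 985.6 normalized counts in HFD, against 542.0, 430.1 and 553.8 in Chow. C1qb had 635.8, 694.4 and 1118.8 in HFD, against 471.0, 413.5 and 579.2 in Chow. C1qc had 684.4, 641.5 and 1274.1 in HFD, against 493.5, 465.8 and 543.8 in Chow. For all 3 genes the third HFD library, replicate 38, was far above the other HFD libraries, which lay above Chow by less. The ratios of means were 1.53 for C1qa, 1.67 for C1qb and 1.73 for C1qc, and 1.33, 1.36 and 1.32 without replicate 38. The authors' deposited table gave adjusted p of 0.0489, 0.0436 and 0.0471.

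Cd5l and Adgre1 were likewise highest in HFD replicate 38. Cd5l had 1773.3, 1867.3 and 3187.6 normalized counts in HFD, against 1195.8, 1074.5 and 1538.6 in Chow, a ratio of 1.79 (1.43 without replicate 38). Adgre1 had 659.1, 537.9 and 883.5 in HFD, against 394.8, 320.3 and 495.2 in Chow, a ratio of 1.72 (1.48 without replicate 38). Both ratios stayed above 1 with each library left out in turn. The authors' deposited table gave adjusted p of 0.0184 for Cd5l and 0.0212 for Adgre1.

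Cd68, a lysosomal membrane protein of phagocytes, was not listed between HFD and Chow, but its counts were at hand through another table. It had 76.9, 110.0 and 195.3 normalized counts in HFD, against 60.6, 62.5 and 61.9 in Chow, and the groups did not overlap. Its Chow counts were at hand only because it was called higher in HFD PCN against Chow. The lack of overlap thus rests on Chow values that entered through a call in which Chow was low. The ratio was 2.07, and edgeR's quasi-likelihood test on these counts, under 0.05 before adjustment, gave an adjusted p of 0.341. Cd14, the co-receptor that hands lipopolysaccharide to Toll-like receptor 4, had 224.8, 187.5 and 175.4 in HFD, against 163.7, 164.6 and 242.1 in Chow. The groups overlapped and the ratio was 1.03. Chow counts of Cd14 were at hand only because it was called lower in HFD PCN against Chow.

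The 6 calls depended on the test. With edgeR on the listed counts, 0 of the 6 passed an adjusted p of 0.05 and all 6 had an unadjusted p under 0.05, with adjusted p from 0.206 to 0.361. That test called 0.42% of the genes after adjustment, and 99.8% of the listed genes had an unadjusted p under 0.05. All 6 kept their direction with each library left out in turn.

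**Figure D2:**
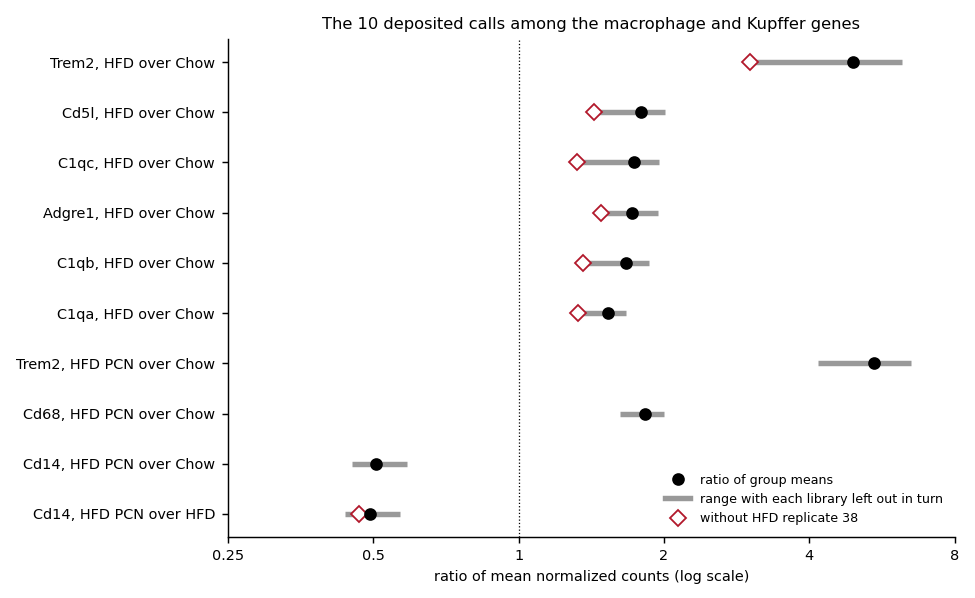
Ratio of mean normalized counts (log scale, black points) for the 10 deposited calls among the macrophage and Kupffer genes, with the range of the ratio when each of the 6 libraries of the comparison is left out in turn (grey). Without HFD replicate 38 (open diamonds) the HFD over Chow ratios lie at the low end of their ranges, from 1.32 for C1qc to 3.01 for Trem2.

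Other macrophage genes moved in the same direction in part. Of 11 further Kupffer cell genes, 2 rose and none fell in HFD against Chow in the authors' deposited table. They were Siglec1, a sialic acid receptor, at 541.2 ± 119 in HFD against 286.8 ± 63.9 in Chow, and Vsig4, a complement receptor, at 514.7 ± 133 in HFD against 305.4 ± 32.5 in Chow. Of 16 general macrophage and myeloid genes, 3 rose and none fell: Ctss (1.75-fold), Mpeg1 (1.63-fold) and Lyz2 (1.59-fold). Of 7 monocyte genes only Plac8 rose (1.97-fold). Of 9 genes of lipid-associated macrophages beside Trem2, 4 rose and none fell. Gpnmb, a membrane glycoprotein, was at 44.3 ± 48.9 in HFD against 3.2 ± 2.8 in Chow. Cd63, a lysosomal tetraspanin, rose 4.14-fold and Spp1, which encodes osteopontin, 4.1-fold, while Lpl, which encodes lipoprotein lipase, rose 2.13-fold. Without HFD replicate 38 the ratios of Gpnmb, Cd63 and Spp1 were 5.14, 2.18 and 2.6. None of these 10 genes passed an adjusted p of 0.05 in edgeR on the listed counts. Of 10 genes of the lipopolysaccharide receptor pathway 1 rose, Ticam1 (1.6-fold), an adaptor of Toll-like receptors, and of 7 classical complement genes beside C1q 1 rose, C4b (1.39-fold). Ticam1 (adjusted p = 0.127) and C4b (adjusted p = 0.663) did not pass in edgeR on the listed counts either.

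Markers of other cell types moved in the same comparison. In the authors' deposited table, 3 of 10 stellate cell markers rose (Col1a1 8.74-fold, Col3a1 5.49-fold and Pdgfrb 1.58-fold), 3 of 8 hepatocyte markers fell (Serpina1c, Hnf4a and Apoa1), 1 of 10 endothelial markers rose (Lyve1) and 1 fell (Kdr), and 1 of 5 cholangiocyte markers rose (Krt23). Of these calls only Col1a1 (adjusted p = 0.00736) and Col3a1 (adjusted p = 0.0146) passed in edgeR on the listed counts. None of the 5 B cell, 8 T and NK cell, 6 neutrophil, 5 dendritic cell and 5 red blood cell markers was listed. Most of these markers have no Chow counts at hand, so their summed levels were not compared, and their part in the macrophage gene results was not tested.

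The comparison of HFD Vehicle with HFD is the one with counts of all genes, and it asks what injection of the vehicle did. None of the 10 genes passed edgeR's quasi-likelihood test at an adjusted p of 0.05, where 0.00726% of 13775 genes did (1 gene), nor were any called in the authors' deposited table, where 0.792% were. None of the 10 had an unadjusted p under 0.05 in edgeR, against 12.5% of all genes. The libraries of the 2 groups overlapped for all 10, and they did not overlap for 19.6% of all genes.

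Among genes of Kupffer cell identity, Clec4f had 1469.3, 1943.3 and 1152.0 normalized counts in HFD Vehicle, against 1716.2, 1908.9 and 2941.2 in HFD (log2 fold change -0.53, edgeR adjusted p = 0.439). Cd5l had 2107.2, 2027.6 and 1423.8 in HFD Vehicle, against 1773.3, 1867.3 and 3187.6 in HFD (log2 fold change -0.31, edgeR adjusted p = 0.637). In both genes HFD Vehicle replicate 55 was the lowest and HFD replicate 38 the highest, and the other 4 libraries lay between them. Without HFD replicate 38 the log2 change of Cd5l was 0.03.

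Marco, a scavenger receptor that binds bacteria, had the highest log2 fold change of the 10. It had 787.1, 118.0 and 309.4 normalized counts in HFD Vehicle replicates 15, 23 and 55, against 255.1, 73.4 and 124.3 in HFD replicates 4, 30 and 38. The highest library of the 6 was HFD Vehicle replicate 15, and HFD Vehicle replicate 23 lay below HFD replicates 4 and 38. The log2 fold change of 1.39 had an adjusted p of 0.44 in edgeR, and it ran from 0.47 to 2.06 with each library left out in turn. The same HFD Vehicle replicate 15 had the lowest Trem2 of the 6, at 4.7 normalized counts (5 reads), against 32.7 and 27.5 in HFD Vehicle replicates 23 and 55. Trem2 had a log2 fold change of 0.07, whose sign changed when any of 4 libraries was left out.

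The C1q genes and Adgre1 were lower in HFD Vehicle on average but not by the test. C1qc averaged 592.4 ± 87.8 in HFD Vehicle and 866.7 ± 354 in HFD, with an adjusted p of 0.455 in edgeR. C1qa averaged 612.0 ± 85.1 in HFD Vehicle and 779.0 ± 183 in HFD, and C1qb 646.3 ± 124 in HFD Vehicle and 816.3 ± 264 in HFD. Adgre1 had 676.6, 519.5 and 303.3 in HFD Vehicle, against 659.1, 537.9 and 883.5 in HFD. Libraries of the 2 groups overlapped for each of these. Cd68 averaged 91.8 ± 12.4 in HFD Vehicle and 127.4 ± 61.1 in HFD, and Cd14 198.6 ± 84.3 in HFD Vehicle and 195.9 ± 25.8 in HFD.

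The median log2 change of the 10 genes was -0.34, with 7 of 10 below 0, and that of all 13775 genes was 0.02, with 47.5% below 0. A pair of libraries stood apart for these genes. HFD Vehicle replicate 55 was the lowest library for 7 of the 10. Of all genes, it was the lowest for 25.3% and the highest for 26.1%. HFD replicate 38, with 7466378 counts the shallowest of the 6, was the highest for 8 of the 10 genes (all but Cd14 and Marco). Of all genes, it was the highest for 20% and the lowest for 26.9%, so both libraries were extreme in both directions. The median was -0.22 without HFD Vehicle replicate 55 and -0.04 without HFD replicate 38. The cell type lists showed where else these libraries stood apart. Among others, HFD Vehicle replicate 55 had the lowest sums for hepatocyte markers (1038973), endothelial markers (6035) and general macrophage genes (5664). It had the highest for the complement genes beside C1q (567316). The summed lipid-associated macrophage genes were at 670.9 to 1302 in HFD Vehicle, against 2806 in HFD replicate 38 and 962.6 and 1133 in the other HFD libraries. The summed monocyte genes were at 147.4 to 206.2 in HFD Vehicle, against 368.5 in HFD replicate 38 and 174.7 and 205.4 in the other HFD libraries. The summed B cell markers were at 63.1 to 84.1 in HFD Vehicle, against 330.7 in HFD replicate 38 and 87.8 and 117.4 in the other HFD libraries. Replicate 38 was thus the highest of the 6 for all 3 lists. It was also the highest for further Kupffer cell genes (8721), general macrophage genes (10140) and stellate markers (12999). For the complement genes beside C1q (143916) and the lipopolysaccharide receptor pathway (5441) it was the lowest. Whether these differences bear on the macrophage genes was not tested.

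**Figure D3:**
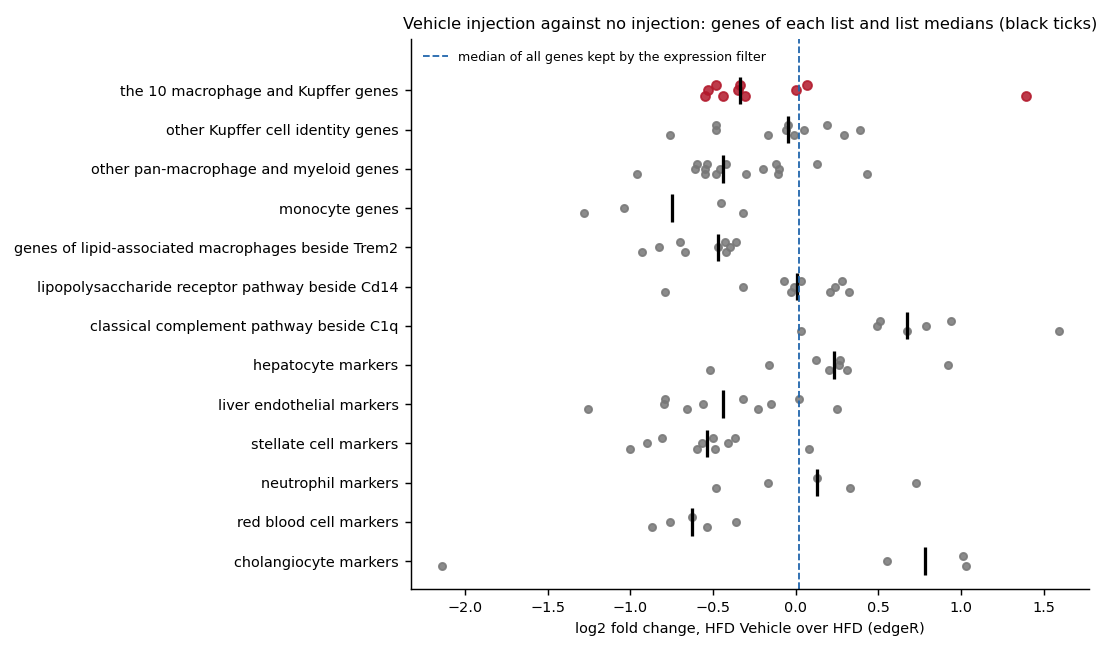
Log2 fold change of HFD Vehicle over HFD (edgeR) for each gene kept by the expression filter, by list, for lists with at least 4 such genes. Black ticks are list medians and the dashed line is the median of all genes, at 0.02; the 10 macrophage and Kupffer genes (red) have a median of -0.34, with Marco at 1.39.

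Of the companion lists in this comparison, all 9 lipid-associated macrophage genes had a log2 change below 0 (median -0.47), as had 14 of 16 general macrophage genes (median -0.44), and the 11 further Kupffer cell genes had a median of -0.05. None of these genes was called in the authors' deposited table or by edgeR. Stellate cell markers (9 of 10 below 0, median -0.54) and endothelial markers (8 of 10, median -0.44) also lay mostly below 0. All 5 red blood cell markers (median -0.63) and all 4 monocyte genes kept by the filter (median -0.75) lay below 0 too. Of the endothelial markers Lyve1 (2.38-fold) and Cdh5 (1.73-fold) fell in the authors' deposited table, and no stellate cell marker was called there. Of 5 cholangiocyte and 5 red blood cell markers 1 each fell there (Krt23 and Hbb-bs), and no B cell, T and NK cell, neutrophil or hepatocyte marker was called. These falls did not pass in edgeR, with adjusted p of 0.184 for Lyve1, 0.162 for Cdh5, 0.263 for Krt23 and 0.16 for Hbb-bs. The summed stellate markers ran from 6395 to 10213 in HFD Vehicle and from 10476 to 12999 in HFD, and the summed endothelial markers from 6035 to 9233 in HFD Vehicle and from 9623 to 10701 in HFD. Summed red blood cell markers ran from 4444 to 5185 in HFD Vehicle and from 5953 to 8613 in HFD. The only marker of any list at 0 in a whole group was Ly6g, a neutrophil marker, in HFD. The 7 classical complement genes beside C1q, which hepatocytes mainly make, had average changes of the opposite sign to the C1q genes. All 7 had a log2 change above 0 (median 0.67), and C3 (3.01-fold), Serping1 (1.92-fold) and C4b (1.73-fold) rose in the authors' deposited table, though edgeR gave these 3 adjusted p of 0.16, 0.163 and 0.253.

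The comparison of HFD PCN with HFD Vehicle sets PCN injection against vehicle injection, and the labels do not say what PCN was dissolved in. None of the 10 genes was called in the authors' deposited table, which called 1.71% of the estimated 25879 genes. Counts of 3 of the 10 were at hand. Cd14 had 104.8, 117.9 and 66.6 normalized counts in HFD PCN, against 238.1, 255.8 and 101.8 in HFD Vehicle. A single vehicle library, replicate 55, lay among the PCN libraries, and the other vehicle libraries lay above them all. The ratio of means was 0.486, and edgeR on the counts at hand gave an adjusted p of 0.601, under 0.05 before adjustment. The log2 change of -1.05 ran from -1.36 to -0.83 as each library was left out in turn, and edgeR's unadjusted p from 0.00104 to 0.0769. PCN counts of Cd14 were at hand only because it was called lower in HFD PCN against HFD and against Chow. Its low PCN values here were thus selected for being low. PCN counts of Cd68 and Trem2 were at hand only because both were called higher in HFD PCN against Chow. Their PCN values were thus selected for being high. Cd68 averaged 112.8 ± 23.8 in HFD PCN and 91.8 ± 12.4 in HFD Vehicle (ratio 1.23, edgeR adjusted p = 1). Trem2 had 22.9, 15.2 and 36.4 in HFD PCN, against 4.7, 32.7 and 27.5 in HFD Vehicle, and the groups overlapped (ratio 1.15, edgeR adjusted p = 1).

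Against uninjected HFD, 1 of the 10 genes fell in HFD PCN and none rose in the authors' deposited table, where 3.15% of genes were called and 1.26% called lower. That gene was Cd14, at 104.8, 117.9 and 66.6 in HFD PCN, against 224.8, 187.5 and 175.4 in HFD. The groups did not overlap, as was true of 97.9% of the listed genes, and the ratio was 0.492 (0.437 to 0.568 with each library left out). The adjusted p was 0.00402 in the authors' deposited table. With edgeR on the listed counts, which called 0.538% of genes, the adjusted p was 0.128. Cd68 averaged 112.8 ± 23.8 in HFD PCN and 127.4 ± 61.1 in HFD, and Trem2 24.8 ± 10.8 in HFD PCN and 22.5 ± 15.5 in HFD, with overlapping libraries in both. As above, the PCN values of Cd68 and Trem2 were selected for being high.

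Against Chow, 2 of the 10 genes rose and 1 fell in HFD PCN in the authors' deposited table, where 8.1% of genes were called, 4.43% higher and 3.67% lower. Trem2 had 22.9, 15.2 and 36.4 normalized counts in HFD PCN, against 4.3, 3.8 and 5.5 in Chow, with no overlap, as for 97.9% of the listed genes. Its ratio was 5.44 (deposited adjusted p of 0.00214 in the authors' deposited table), the pooled counts of 86 in HFD PCN and 13 in Chow gave 5.55 (95% interval 3.08 to 10.8), and edgeR on the listed counts, which called 3.1% of genes, gave an adjusted p of 0.0378. Trem2 was the only one of the 10 genes to pass edgeR in any comparison, and the adjusted p was 0.05 or more without any 1 of 5 of the 6 libraries. Cd68 had 138.1, 91.0 and 109.2 in HFD PCN, against 60.6, 62.5 and 61.9 in Chow, a ratio of 1.83. Cd14 had 104.8, 117.9 and 66.6 in HFD PCN, against 163.7, 164.6 and 242.1 in Chow, a ratio of 0.507. The authors' deposited table gave adjusted p of 0.0131 for Cd68 and 0.00466 for Cd14, and edgeR on the listed counts gave 0.0743 and 0.0947. The 3 comparisons with PCN share the PCN libraries, so the low Cd14 in them is 1 set of 3 PCN values read against 3 other groups.

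HFD Vehicle against Chow called none of the 10 genes in the authors' deposited table, which called 3.1% of the estimated 25519 genes. Trem2 had 4.7, 32.7 and 27.5 normalized counts in HFD Vehicle, against 4.3, 3.8 and 5.5 in Chow. A pair of vehicle libraries lay well above Chow and the remaining one, replicate 15, lay within it. The ratio of means was 4.74, the pooled ratio of 65 to 13 counts was 4.66 (95% interval 2.54 to 9.22), and edgeR on the counts at hand gave an adjusted p of 0.368. Cd68 had 86.0, 106.1 and 83.5 in HFD Vehicle, against 60.6, 62.5 and 61.9 in Chow, with no overlap and a ratio of 1.49 (edgeR adjusted p = 0.46). Chow counts of Trem2 and Cd68 were at hand only through comparisons that called these genes higher than Chow, so their ratios here are not neutral. Cd5l averaged 1853 ± 374 in HFD Vehicle and 1270 ± 241 in Chow, a ratio of 1.46. The C1q genes and Adgre1 had ratios of 1.18 to 1.32, with overlapping libraries, and Cd14 had a ratio of 1.04. These ratios are not neutral either. Chow counts of Cd5l, the C1q genes and Adgre1 were at hand only through their calls as higher in HFD against Chow. Those of Cd14 were at hand only through its call as lower in HFD PCN against Chow.

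Companion lists gave few calls with PCN in the authors' deposited tables. Of 5 dendritic cell markers Clec9a fell in HFD PCN against HFD Vehicle, to 29.8 ± 8.6 in HFD PCN against 78.2 ± 16.0 in HFD Vehicle (edgeR on the listed counts, adjusted p = 0.216). Of 7 classical complement genes beside C1q only C2, the protease that joins C4b in the C3 convertase, rose with PCN against vehicle, at 845.9 ± 124 in HFD PCN and 456.9 ± 61.0 in HFD Vehicle (edgeR on the listed counts, adjusted p = 0.155). Against HFD 2 of the 7 rose in HFD PCN (C2 2.95-fold and C3 2.2-fold), and against Chow 3 rose in HFD PCN (C2, C4b and C3) and 3 in HFD Vehicle (C4b, C3 and Serping1). In edgeR on the listed counts, C2 passed in HFD PCN against HFD (adjusted p = 0.0101) and against Chow (adjusted p = 0.00771). The other calls in HFD PCN did not pass in edgeR, with adjusted p of 0.236 for C3 against HFD, and of 0.842 for C3 and 0.065 for C4b against Chow. None of the 3 passed in HFD Vehicle against Chow, with edgeR adjusted p of 0.0635 for C4b, 0.191 for C3 and 0.158 for Serping1. Of 11 further Kupffer cell genes, 9 lipid-associated macrophage genes, 7 monocyte genes and 10 genes of the lipopolysaccharide receptor pathway, none was called between HFD PCN and HFD Vehicle or between HFD PCN and HFD.

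Lipid-associated macrophage genes were called higher against Chow in the injected groups too, but most of these calls did not hold in edgeR. In the authors' deposited tables, 3 of 9 rose in HFD PCN against Chow (Mmp12 6.08-fold, Gpnmb 5.48-fold and Cd63 3.84-fold), and 3 of 9 rose in HFD Vehicle against Chow (Gpnmb 9.6-fold, Mmp12 6.53-fold and Spp1 3-fold). In edgeR on the listed counts Mmp12 passed in HFD PCN against Chow (adjusted p = 0.0178), whereas Cd63 (adjusted p = 0.0675) and Gpnmb (adjusted p = 0.226) did not. In HFD Vehicle against Chow none of the 3 passed in edgeR, with adjusted p of 0.0903 for Spp1, 0.339 for Gpnmb and 0.38 for Mmp12. The ratio of Gpnmb was 3.52 in HFD PCN against Chow without HFD PCN replicate 27, and 4.82 in HFD Vehicle against Chow without HFD Vehicle replicate 23. Mmp12 encodes a macrophage elastase, and its libraries overlapped between HFD Vehicle and Chow. Of the genes around Cd14, the lipopolysaccharide receptor pathway had 2 of 10 higher in HFD PCN against Chow (Tlr2 2.45-fold and Lbp 1.42-fold) and 1 lower (Traf6 1.44-fold), where Cd14 was also called lower. Of these, Tlr2 (adjusted p = 0.0388) and Traf6 (adjusted p = 0.0447) passed in edgeR on the listed counts and Lbp (adjusted p = 0.118) did not. In the deposited tables Mpeg1, a general macrophage gene, was called 1.52-fold higher in HFD Vehicle against Chow (edgeR adjusted p = 0.194). Hmox1, of the further Kupffer cell genes, was called 1.75-fold higher in HFD PCN against Chow, with overlapping libraries (edgeR adjusted p = 0.394). In HFD PCN against Chow 7 of 8 hepatocyte markers fell, from 1.57-fold (Hnf4a) to 3.62-fold (Pck1), 3 of 10 stellate cell markers rose, and 1 of 10 endothelial markers fell. Of cholangiocyte markers 1 of 5 rose and 1 fell, and 1 of 5 red blood cell markers fell. In edgeR on the listed counts, 2 of these stellate calls and the red blood cell call passed. None of the hepatocyte, endothelial or cholangiocyte calls did. In HFD PCN against HFD the deposited calls among other cell types were 2 of 8 hepatocyte, 1 of 10 endothelial, 1 of 10 stellate, 1 of 5 cholangiocyte and 1 of 5 red blood cell markers, all lower. Of these only the stellate marker, Col1a1, passed in edgeR on the listed counts (adjusted p = 0.0472). In HFD Vehicle against Chow the only deposited call among markers of other cell types was Alas2, a red blood cell marker, which fell 1.5-fold (edgeR adjusted p = 0.0804). The part of these other cell types in the macrophage gene results was not tested.

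Ratios of counts within a library, which do not depend on its depth or scaling, were compared next. C1qa over C1qc was 1.03 ± 0.013 in HFD Vehicle, 0.937 ± 0.14 in HFD and 1.01 ± 0.088 in Chow, and the lowest library, HFD replicate 38, was at 0.774. C1qb over C1qc was 1.09 ± 0.15 in HFD Vehicle, 0.963 ± 0.11 in HFD and 0.969 ± 0.09 in Chow. Cd5l over Adgre1 was 3.9 ± 0.79 in HFD Vehicle, 3.26 ± 0.49 in HFD and 3.16 ± 0.17 in Chow, and Clec4f over Adgre1 was 3.24 ± 0.92 in HFD Vehicle and 3.16 ± 0.49 in HFD. Cd68 over Adgre1 was 0.202 ± 0.074 in HFD Vehicle, 0.181 ± 0.056 in HFD and 0.158 ± 0.035 in Chow. All these ratios overlapped between the groups. Cd14 over Adgre1 was 0.352, 0.492 and 0.336 in HFD Vehicle and 0.341, 0.348 and 0.198 in HFD, against 0.414, 0.514 and 0.489 in Chow. Each HFD library lay below each Chow library, and the HFD Vehicle libraries overlapped both. Adgre1 has Chow counts only because it was called higher in HFD against Chow, so this gap is not separate from that call. Trem2 over Adgre1 was 0.0256, 0.0197 and 0.0452 in HFD, against 0.011, 0.012 and 0.0112 in Chow, with no overlap. The Chow values rest on 5, 3 and 5 reads of Trem2. Both genes were called higher in HFD against Chow, with ratios of 4.93 for Trem2 and 1.72 for Adgre1. The lack of overlap thus restates those calls and adds no separate result. In HFD Vehicle Trem2 over Adgre1 was 0.00698, 0.063 and 0.0906, below and above the Chow values. Marco over Adgre1 was 1.16, 0.227 and 1.02 in HFD Vehicle, against 0.387, 0.136 and 0.141 in HFD.

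**Figure D4:**
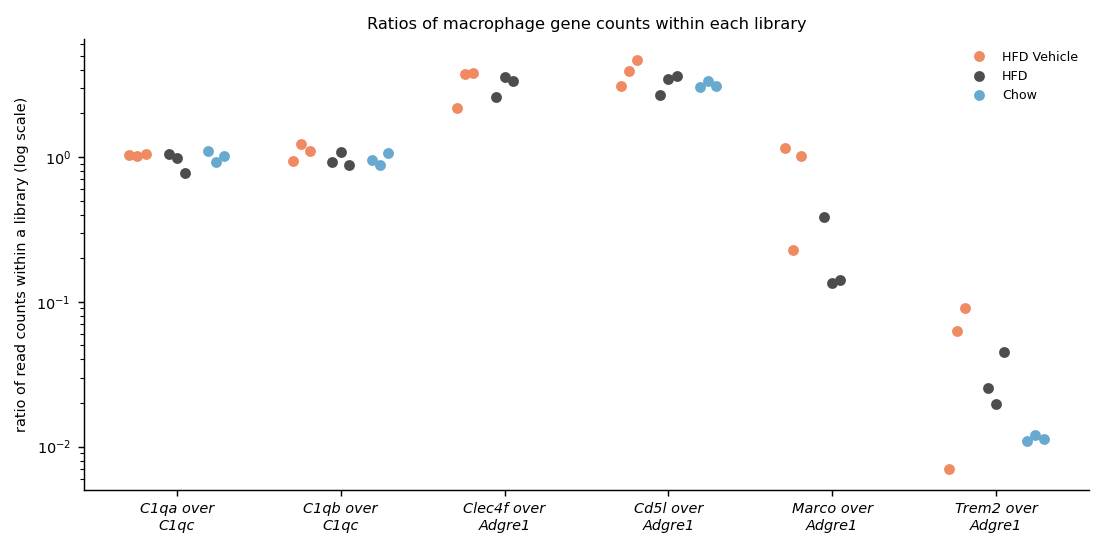
Ratios of read counts within each library (log scale), for HFD Vehicle, HFD and Chow from left to right in each pair, and one point per library in ascending replicate number. The C1q pairs stay near 1, from 0.774 to 1.23, while Trem2 over Adgre1 spans 0.00698 to 0.0906; Clec4f and Marco have no Chow counts at hand.

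Across the 6 HFD Vehicle and HFD libraries, 7 of the 10 genes followed the mean z-score of the 10 closely. Pearson's r with that mean, which includes the gene itself, was 0.98 for Cd5l, 0.97 for C1qa and C1qc, 0.95 for C1qb, 0.93 for Clec4f, 0.88 for Adgre1 and 0.83 for Cd68. It was 0.42 for Cd14, 0.32 for Trem2 and -0.30 for Marco. The points share these 6 libraries, and the mean z-score was -0.93 in HFD Vehicle replicate 55 and 1.21 in HFD replicate 38, against -0.26 to 0.10 in the other 4. Among the 13775 genes kept by the filter, those most like the mean included Sh3glb2 (r = 0.997), Slc9a9 and Rassf4 (both 0.987) and Gng2 (0.985). Over all 12 libraries counts of 2227 genes were at hand, and the mean holds only Trem2, Cd14 and Cd68. The 5 genes most like that mean were Cpxm1 (0.924), Sirpa (0.920), Rasgrp2 (0.917), Gpx3 (0.893) and Ubd (0.877). Sirpa encodes an inhibitory receptor of myeloid cells. The mean stood poorly for Cd14 (r = 0.19), against 0.74 for Trem2 and 0.85 for Cd68. Genes have counts in all 12 libraries only through deposited calls between groups. High values of r are thus not separate from the group differences behind those calls.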

How the data were processed

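Liver RNA of 12 mouse samples was sequenced as Illumina cDNA libraries of DNase-treated total RNA, per the labels' protocols. Per the submitters' processing notes, HISAT2, HTSeq and DESeq2 were used, on GRCm38 (mm10). Their versions, settings and use of strand are not given in the sources used here. As raw material, the authors deposited raw read counts per gene in 6 pairwise tables of 6 libraries each, with a mean, a log2 fold change, a standard error, a p-value and an adjusted p-value per gene. The authors' deposited fold changes are moderated by DESeq2 and were not used as effect sizes. The table of HFD Vehicle against HFD holds all genes, and the other 5 give values only for genes with an adjusted p under 0.05. Where tables shared a count, 0 of 15768 values differed.

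Size factors were recovered from the counts and the deposited means and put on 1 scale (largest disagreement 0.518%); normalized counts are counts over these factors, and ratios are of group means. Totals of HFD PCN and Chow libraries were estimated from the size factors, an estimate off by at most 16.6% where totals were known. Levels per kilobase use GENCODE M21 exon lengths, counting each base of any annotated exon of a gene once.

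The complete table was tested with edgeR 4.0.16 (quasi-likelihood, TMM, expression filter, Benjamini-Hochberg over 13775 genes) in R 4.3.3, with DESeq2 1.42.0 as an alternative. For the other 5 tables the call is the authors' deposited adjusted p, and the counts were tested again with edgeR, using the recovered size factors, a dispersion prior taken from the complete table, and adjustment over as many genes as each table was estimated to have tested. Calls of the 2 tests thus rest on different models. A further edgeR test on every count at hand, listed or not, was chosen after seeing the data. Its adjustment counts genes without counts as not passing. Tests were two-sided, with Python 3.11.15 for the summaries. For 1 gene, permuting 3 libraries against 3 exactly can give no p below 0.10. Scripts were tested on simulated data.

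No replicate number occurs in more than 1 group, and samples were not paired. All 10 genes are named in every comparison where they have values, and up to 4 called genes of a companion list are named by size of change. Some genes that this rule names are not reported here. The members and lists were chosen with earlier results of these data known. The labels name no batch.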

Additional observations from a re-analysis of the deposited data

How the results depend on the processing

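Between HFD Vehicle and HFD, edgeR called 1 gene of 13775, which was none of the 10 macrophage genes, but 283 without the expression filter; DESeq2 refitted on the same counts called 268, 206 were called in the authors' deposited table, and edgeR called 0 to 9 with each library left out in turn. None of these settings called any of the 10 genes, although without the filter 5 had an unadjusted p under 0.05, against 0 with it. Their median log2 change lay between -0.49 and -0.04, the value nearest 0 being that without HFD replicate 38. The log2 change of Trem2 (0.07) became -0.37 and -0.12 without HFD Vehicle replicates 23 and 55, -0.14 and -0.31 without HFD replicates 4 and 30, and 0.63 without HFD replicate 38. That of Cd5l (-0.31) became 0.03 without HFD replicate 38, with -0.47 as its lowest. That of Cd14 (0.00) ran from -0.22 to 0.31 with each library left out. The cause of these differences was not tested.

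Of the 10 deposited calls among these genes, edgeR kept 1, Trem2 in HFD PCN against Chow. For HFD against Chow the 6 calls among the 10 genes became 0 (0 on all counts at hand, and 0 to 0 with each library left out). For HFD PCN against HFD 1 became 0 (0 on all counts at hand, and 0 to 0), and for HFD PCN against Chow 3 became 1 (1 on all counts at hand, and 0 to 1). Ratios of the 10 calls moved by less than the replicate SD in 69 of 70 alternatives, and the exception was Trem2 in HFD against Chow without HFD replicate 38. Depth limits Trem2 most, with 3 to 42 reads per library. No paired analysis was possible because the groups share no replicate numbers.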
